A study of Homo sapiens with 7 samples.

Results

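EGR1, EGR2 and EGR3, NR4A1, NR4A2 and NR4A3, and IER2, IER3 and IER5 are 9 early response genes of 3 families, taken by name from the 19978 genes of a table of HEK-293 cells, an established line of human embryonic kidney origin. RNA was measured by poly(A) sequencing after 48 h in 3 groups. The control (2 samples) was held at pH 7.4 with the vehicle DMSO, and the acidosis group (3 samples) was given DMSO in acidified DMEM of pH 6.6. In the SRPIN340 group (2 samples) cells at pH 7.4 received 10 µM of SRPIN340, an inhibitor of the splicing kinase SRPK1, also with DMSO. All cells were of the same line in the same basal medium, so the results hold for a single cultured line, and the comparisons ask how acid medium and kinase inhibition each changed these genes.

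EGR proteins are zinc finger transcription factors that bind GC-rich sites. NR4A proteins are orphan nuclear receptors that act without a known natural ligand. IER genes were named as immediate early response genes and encode small proteins, among them IER3, which acts on survival signalling, and IER5, a partner of the heat shock factor HSF1. Genes of this class are transcribed within minutes of a stimulus from transcription factors that are already present, SRF with its ELK partners at CArG boxes and CREB at cAMP response elements (CRE), and their mRNAs are short-lived. In cultured cells they are known for a brief rise after serum, growth factors or stress.

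The start regions of 4 members are printed first because the members were read together as targets of these upstream factors. RefSeq gave promoters for 6 of the 9 members (GRCh38.p14), and for EGR1, NR4A3, IER2 and IER5 the RefSeq start was 0 bases from that of the canonical GENCODE transcript. For EGR2 and NR4A1 the starts were 2801 and 28610 bases apart, so the windows of these genes describe another start and are not printed. Each sequence is the 250 bases before the start, read 5′ to 3′ on the strand of the gene, with CArG boxes and CRE cores (TGACG, on either strand) in capitals. The regions are chr5:138465229-138465478 (plus strand) for EGR1, chr9:99821635-99821884 (plus strand) for NR4A3, chr19:13150161-13150410 (plus strand) for IER2 and chr1:181088450-181088699 (plus strand) for IER5.
EGR1: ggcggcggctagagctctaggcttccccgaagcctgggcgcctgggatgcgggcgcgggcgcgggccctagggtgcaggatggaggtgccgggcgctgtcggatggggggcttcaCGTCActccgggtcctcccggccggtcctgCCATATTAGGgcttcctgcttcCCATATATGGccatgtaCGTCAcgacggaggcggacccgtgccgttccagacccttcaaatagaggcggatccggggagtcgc
NR4A3: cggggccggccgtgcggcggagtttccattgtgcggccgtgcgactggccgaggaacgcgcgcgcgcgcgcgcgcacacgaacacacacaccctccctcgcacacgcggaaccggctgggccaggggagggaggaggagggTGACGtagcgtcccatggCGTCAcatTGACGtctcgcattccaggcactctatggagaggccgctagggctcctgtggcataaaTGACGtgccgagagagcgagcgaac
IER2: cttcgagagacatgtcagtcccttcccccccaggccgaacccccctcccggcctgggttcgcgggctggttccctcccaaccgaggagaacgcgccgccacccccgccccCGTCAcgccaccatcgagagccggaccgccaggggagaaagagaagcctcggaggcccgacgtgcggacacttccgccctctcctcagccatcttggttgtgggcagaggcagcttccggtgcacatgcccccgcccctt
IER5: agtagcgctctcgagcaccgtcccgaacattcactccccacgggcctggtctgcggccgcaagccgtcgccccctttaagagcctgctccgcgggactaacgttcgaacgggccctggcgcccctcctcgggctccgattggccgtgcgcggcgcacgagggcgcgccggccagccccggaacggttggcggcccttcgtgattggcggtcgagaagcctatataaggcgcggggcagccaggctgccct

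Motifs were searched on both strands from 250 bases before to 50 after the start, and no matches of different motifs overlapped in the members. EGR1 held 2 CArG boxes, at -105 and -83 from the start, whereas 1.29% of 27305 promoters held any. It also held CRE cores at -135 and -66 and a match to the EGR site (GCGNGGGCG) at -198, a motif in 9.28% of promoters. NR4A3 held 4 CRE cores, at -109, -91, -83 and -25, and IER2 held 1, at -140. The CRE core was present in 25.0% of promoters. IER5 held neither a CArG box nor a CRE core, and its only match was an ETS core (CCGGAA) at -74. IER2 also held an ETS core, at -26, and this motif was in 17.6% of promoters. GC boxes (GGGCGG), found in 44.6% of promoters, numbered 4 in IER2 and 1 in NR4A3. The full CRE (TGACGTCA), the NR4A site known as NBRE (AAAGGTCA), the AP-1 site (TGANTCA) and the TATA box (TATAAA) had no match in the windows of these 4 members. Only these exact letters were searched, so variants such as the tatataag near the end of the printed IER5 sequence were not counted. A match is a run of letters and not a bound site.

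**Figure D1:**
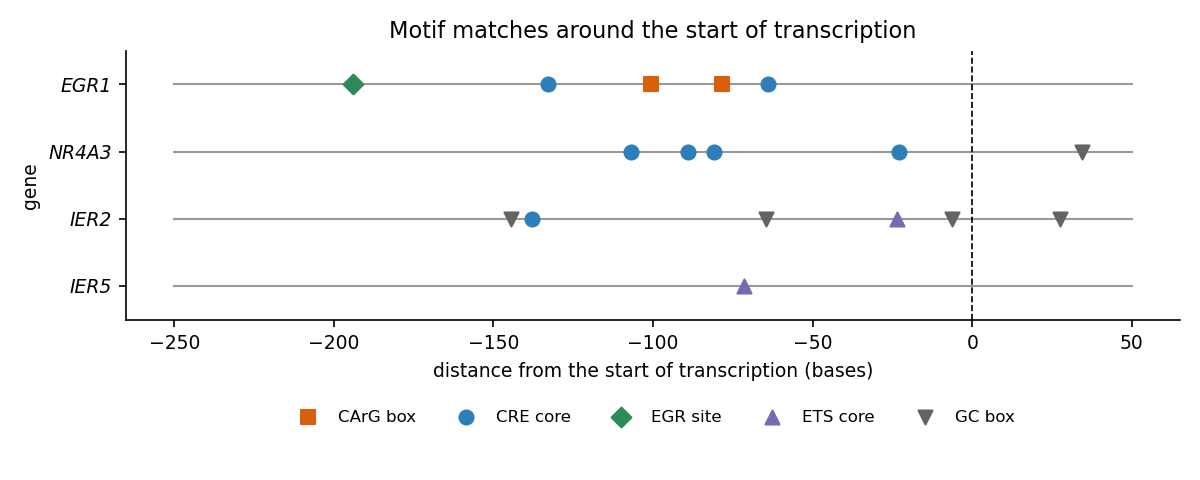
Matches to 5 motifs (symbols) by their distance in bases from the start of transcription (x axis, dashed line at the start) in the 4 members whose RefSeq and canonical starts coincide (y axis). The 2 CArG boxes lie in EGR1 at -105 and -83, and the 4 CRE cores of NR4A3 run from -109 to -25.

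The choice by name did not use gene structure, in which the families differed. By the canonical GENCODE 44 transcript, 6 of 9 had 3 or fewer exons, a count found in 19.9% of protein-coding genes. IER5 had 1 exon, EGR1, EGR2, EGR3, IER2 and IER3 had 2, NR4A1 had 7, and NR4A2 and NR4A3 had 8, where the median gene has 8. The pentamer ATTTA, the core of AU-rich elements that shorten the life of an mRNA, occurred in the 3′ UTR of 8 of 9 members and in 66.0% of genes. Per 1000 nt of 3′ UTR the copies numbered 8.14 in IER3, 5.37 in NR4A1, 3.32 in IER5, 3.31 in NR4A3 and 3.06 in NR4A2, against a median of 1.64 over genes. EGR2 (1.65) was near that median, and EGR3 (1.07), EGR1 (0.818) and IER2 (0) were below it.

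Library totals lay between 13615816 and 24110460 counts, with the 2 smallest in acidosis. The 100 most abundant genes took 24.1% to 24.8% of the counts in acidosis and 15.2% to 15.4% in the other groups, and mitochondrially encoded genes 0.307% to 0.346% against 2.38% to 2.89%. Levels are in CPM, the counts scaled to a common library size with TMM factors, which set the bulk of genes to an unchanged level. The 6 HEK-293 markers (VIM, KRT8, KRT18, NEFL, NEFM and PAX2) were all detected in every sample and summed to 3485 to 3500 CPM in acidosis and 1396 to 1460 CPM at pH 7.4. VIM carried most of this sum, with means of 867 CPM in control and 2714 CPM in acidosis. VIM (log2 fold change 1.65, adjusted p = 2.022e-08) and NEFM (1.65, adjusted p = 2.874e-07) were called higher in acidosis. PAX2 was called lower (-1.93, adjusted p = 0.0002404), and KRT18 was at -0.26 (adjusted p = 0.008772). The 9 markers of other cell types summed to 77.6 to 83.5 CPM in acidosis and 46.4 to 60.5 CPM at pH 7.4. Most of this sum was COL1A1, with means of 30.85 CPM in control and 62.34 CPM in acidosis, and ACTA2, with 21.34 and 17.62 CPM. Of the 4 that were tested, COL1A1 (1.02, adjusted p = 0.0001036) and PTPRC (2.12, adjusted p = 0.04726) were called higher in acidosis, as were 14.4% of tested genes. PTPRC had at most 11.6 counts in a library. PECAM1 (-1.35, adjusted p = 0.3066) and ACTA2 (-0.28, adjusted p = 0.1529) were not called. CD3E was at 0 in every sample. The part of these shifts in the results was not tested. Without TMM, on library totals alone, the median gene in acidosis against control moved from a log2 fold change of -0.05 to -0.63, so each fold change is relative to the typical gene. In bulk RNA a change in the number of cells that express a gene cannot be told apart from a change in RNA per cell.

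In acidosis 8 of the 9 members rose against control, and 0 fell. A call required, in edgeR's quasi-likelihood test, a log2 fold change beyond 1 in size and an adjusted p (Benjamini-Hochberg) under 0.05, and 14.4% of the 14863 tested genes were called higher and 19.1% lower. The median log2 fold change of the members was 3.23, with a range of 0.79 to 5.45, against -0.05 for all tested genes. With TMM scaling every acidosis sample lay above every control sample in each of the 9 members, which held for 37% of tested genes. For EGR2 this depended on the scaling. All 9 members passed the filter on low counts.

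**Figure D2:**
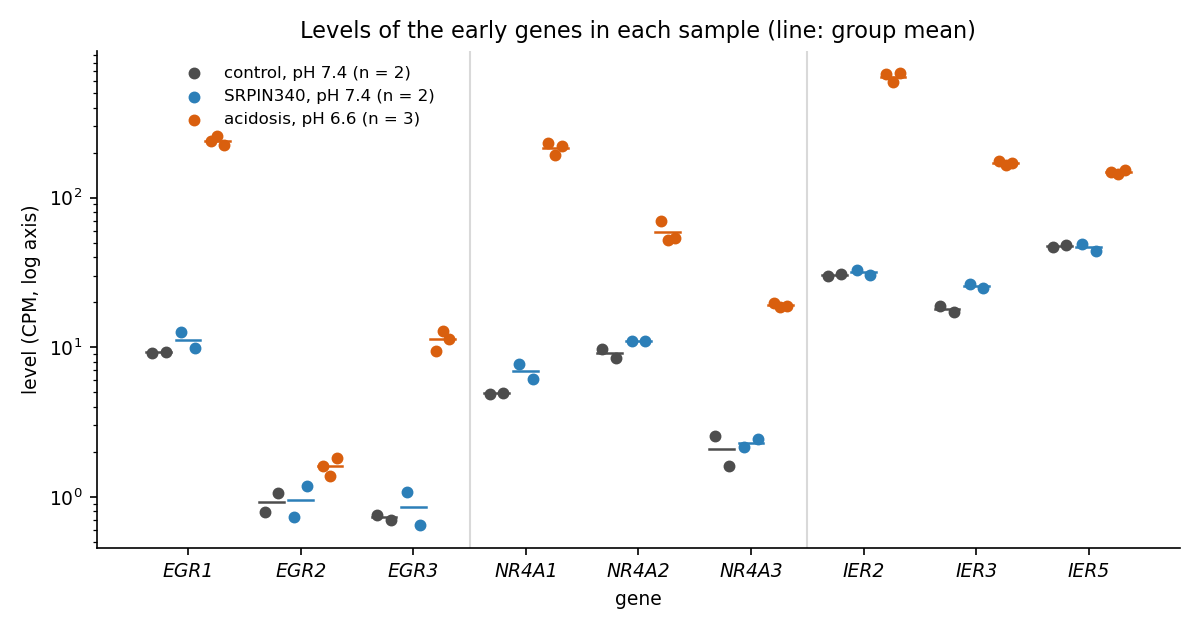
Level in CPM (y axis, log scale) of each of the 9 genes (x axis) in every sample, with points for samples and a line at the mean of each group. With TMM scaling, acidosis samples lie above the control and SRPIN340 samples in every gene, by the least in EGR2 (1.38 to 1.81 CPM against 0.737 to 1.18 CPM).

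Among the EGR genes, EGR1 and EGR3 rose and EGR2 did not pass the test. EGR1 (ENSG00000120738.8, chromosome 5, 138465479 to 138469303, GRCh38), the family member known best as a serum-induced factor, was at 9.19 and 9.27 CPM in control and at 238, 259 and 226 CPM in acidosis. The groups were far apart, and EGR1 was 26.1-fold higher (log2 fold change 4.70, SE 0.13, adjusted p = 7.757e-09). EGR3 (ENSG00000179388.9), which is needed for muscle spindles, was at 0.757 and 0.702 CPM in control and at 9.50, 12.9 and 11.4 CPM in acidosis. Its counts were low, at 20.6 and 20.0 in the control samples and 133 to 160 in acidosis, and its fold change of 3.93 had a wider error (SE 0.32, adjusted p = 3.343e-06).

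EGR2 (ENSG00000122877.18, chromosome 10, 62811996 to 62819167), known for its part in the myelination of peripheral nerve, was at 0.793 and 1.05 CPM in control and at 1.60, 1.38 and 1.81 CPM in acidosis. With TMM scaling the groups did not overlap, but the log2 fold change of 0.79 (SE 0.43) had an adjusted p of 0.134. On library totals alone they did overlap: control replicate 2 held 29.6 of 24110460 counts and acidosis replicate 2 held 15.2 of 13615816. No library held more than 31.2 counts of EGR2, and the 95% interval of its change, -0.18 to 1.76, takes in both no change and a change beyond the limit of a call. EGR2 overlaps a lncRNA on the same strand, whose reads could be shared with it.

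The 3 NR4A genes all rose. NR4A1 (ENSG00000123358.20, chromosome 12, 52022832 to 52059507), known as NUR77 and for a part in apoptosis, was at 4.90 and 4.95 CPM in control and at 231, 193 and 221 CPM in acidosis. It had the largest change of the 9 members, 43.7-fold (log2 fold change 5.45, SE 0.14, adjusted p = 5.334e-09), and ranked 52 of all tested genes by fold change. NR4A2 (ENSG00000153234.16, chromosome 2, 156324437 to 156342348), the NURR1 factor of dopamine neurons, was at 9.69 and 8.50 CPM in control and at 70.0, 52.3 and 53.9 CPM in acidosis. Its lowest acidosis sample was well above both control samples, with a log2 fold change of 2.69 (SE 0.16, adjusted p = 4.552e-07). NR4A3 (ENSG00000119508.18, chromosome 9, 99821855 to 99866891), known as NOR1, was at 2.56 and 1.61 CPM in control and at 19.8, 18.6 and 18.8 CPM in acidosis. Its control samples differed more from each other, relative to their mean, than its acidosis samples did, and the log2 fold change was 3.19 (SE 0.23, adjusted p = 1.381e-06).

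The 3 IER genes rose as well, and per length they were the most abundant members at pH 7.4. IER2 (ENSG00000160888.7, chromosome 19, 13150411 to 13154911), a nuclear protein, was at 30.0 and 31.0 CPM in control and at 669, 589 and 678 CPM in acidosis. It rose 21.2-fold (log2 fold change 4.40, SE 0.09, adjusted p = 1.49e-09) and had the highest level per length of the 9 genes in each acidosis sample. IER3 (ENSG00000137331.12, chromosome 6, 30743199 to 30744548) was at 19.0 and 17.2 CPM in control and at 176, 165 and 170.3 CPM in acidosis, a log2 fold change of 3.23 (SE 0.09, adjusted p = 8.313e-09). IER5 (ENSG00000162783.11, chromosome 1, 181088700 to 181092900) was at 47.1 and 48.2 CPM in control and at 147, 144 and 153 CPM in acidosis. Its rise of 3.11-fold (log2 fold change 1.64, SE 0.08, adjusted p = 1.774e-07) was the smallest of the called members.

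Overlapping lncRNAs could limit the identity of some of these reads. In GENCODE, 6 of the 9 members overlap a lncRNA: NR4A1 (NR4A1AS), NR4A3 (STX17-DT), IER2, IER3 (IER3-AS1 and HCG20) and EGR3 on the opposite strand, and EGR2 on its own strand. These overlaps are of whole gene spans with introns, and overlap of exons was not checked. The strand setting of the quantification is not given in the sources used here. Whether reads of a member and of its antisense partner were told apart is therefore not known.

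**Figure D3:**
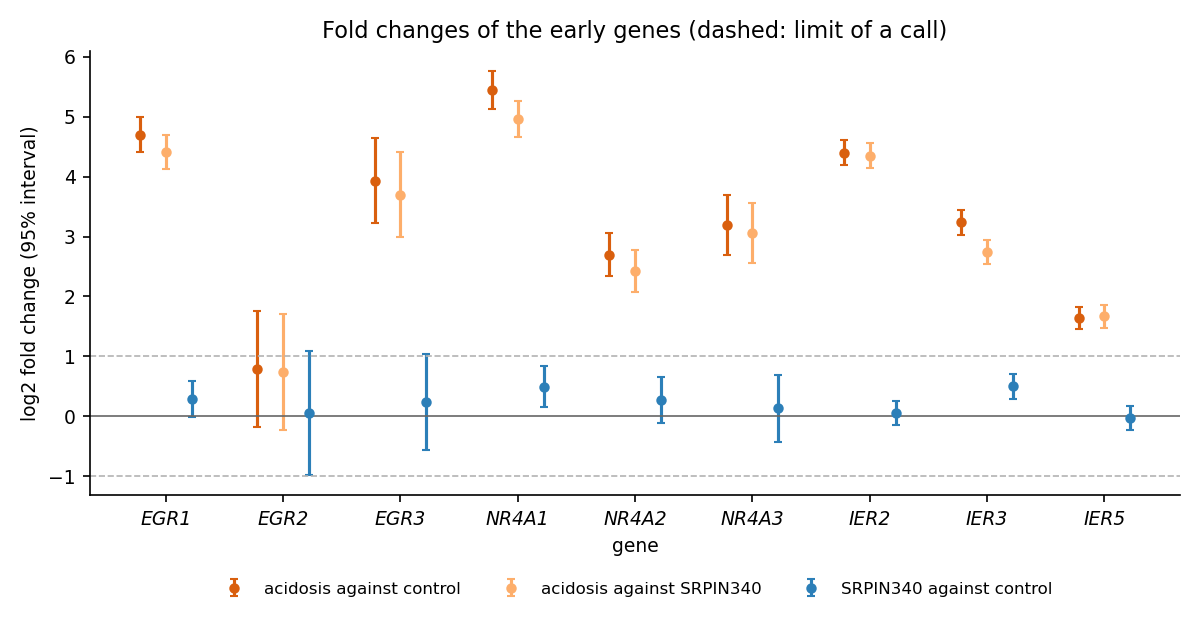
Log2 fold change (y axis) of each gene (x axis) in the 3 comparisons, with 95% intervals from edgeR's quasi-likelihood fit and dashed lines at the limit of a call. In acidosis against control 8 intervals lie above 1 and that of EGR2 runs from -0.18 to 1.76, and in SRPIN340 against control every estimate lies between -0.03 and 0.50.

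Whether members of a family changed by the same factor was read from ratios of their counts. The ratio of the counts of 2 genes in a library does not depend on how libraries are scaled, and it was compared for the 9 pairs within families. These ratios are not per length, so they are read for their shift between groups and not for which gene is higher. The log2 ratio of EGR1 to EGR2 was 3.52 and 3.16 in control and 7.18, 7.54 and 6.99 in acidosis. That of NR4A1 to NR4A2 was -0.99 and -0.78 in control and 1.72, 1.89 and 2.04 in acidosis. IER2 to IER5 moved by about as much, from -0.65 and -0.63 in control to 2.18, 2.03 and 2.15 in acidosis. In these 3 pairs the shift was larger than the spread among samples of a group. The ratio with the smallest shift was NR4A3 to NR4A2, at -1.92 and -2.38 in control and -1.82, -1.49 and -1.52 in acidosis, a shift of 0.54 where the control samples differed by almost as much. A two-sided exact permutation test of the difference in means gave p = 0.1 for each pair, also after Benjamini-Hochberg adjustment over the 9, and this is the smallest p that the 10 rearrangements of 2 and 3 samples can give, so a difference between members was not shown by this test.

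**Figure D4:**
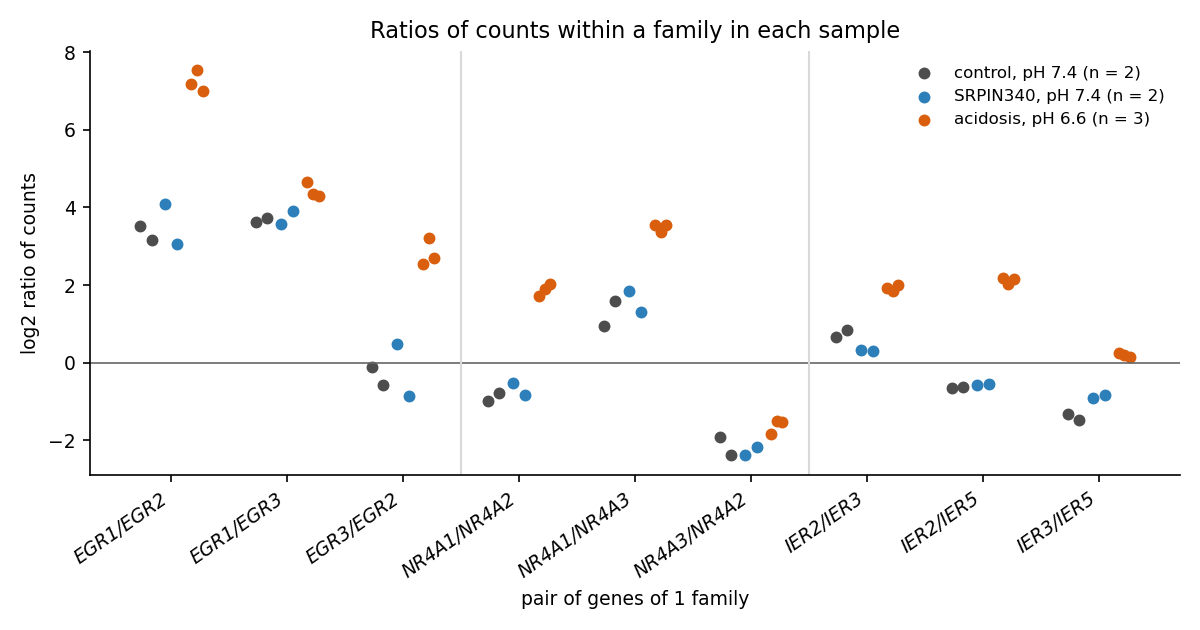
Log2 ratio of the estimated counts of 2 genes of a family (y axis) in each sample, for 9 pairs (x axis). The ratios of NR4A1 to NR4A2, IER2 to IER5 and IER3 to IER5 are below 0 in all pH 7.4 samples and above 0 in all acidosis samples. As the counts are not per length, 0 does not mark equal levels.

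The order of the members by level per length, in CPM per kb of the canonical transcript, was the same in control and SRPIN340 samples and another in acidosis. In control the order was IER3 (14.6 CPM per kb), IER2 (14.5), IER5 (11.3), EGR1 (2.94), NR4A2 (2.62), NR4A1 (1.98), NR4A3 (0.372), EGR2 (0.310) and EGR3 (0.162), and the neighbours IER3 and IER2, and NR4A3 and EGR2, overlapped between samples. With SRPIN340 the levels ran from 20.6 CPM per kb for IER3 to 0.190 for EGR3, and the neighbours EGR1 and NR4A2, and NR4A3 and EGR2, overlapped. In acidosis it was IER2 (306 CPM per kb), IER3 (138), NR4A1 (86.6), EGR1 (76.7), IER5 (35.2), NR4A2 (16.9), NR4A3 (3.41), EGR3 (2.50) and EGR2 (0.536), and only the neighbours NR4A1 and EGR1 overlapped. NR4A1 and EGR1 thus stood above IER5 per length in acidosis and below it in control. As a share of the summed level per length of all 9 genes, IER2 went from 29.6% ± 1.16 (SD, n = 2) in control to 45.9% ± 1.47 (SD, n = 3) in acidosis, and NR4A1 from 4.06% ± 0.092 (SD, n = 2) to 12.99% ± 0.557 (SD, n = 3). IER5 went from 23.2% ± 0.729 (SD, n = 2) to 5.30% ± 0.186 (SD, n = 3). Summed over a family without the division by length, the EGR genes were at 10.7 and 11.0 CPM in control and 239 to 273 CPM in acidosis. The NR4A genes were at 17.1 and 15.1 CPM against 264 to 320.4 CPM, and the IER genes at 96.1 and 96.4 CPM against 898 to 1001 CPM.

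With SRPIN340 at pH 7.4, 0 of the 9 members were called by edgeR, where 0.323% of tested genes were called in either direction. DESeq2 also called 0, and 2 members, IER3 and NR4A1, had an unadjusted p under 0.05 in edgeR, as did 17.6% of tested genes. The median log2 fold change of the members was 0.23, with a range of -0.03 to 0.50. In 4 of them (EGR1, NR4A1, NR4A2 and IER3) both SRPIN340 samples lay above both control samples, which held for 27.3% of tested genes.

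IER3 was the member with the smallest p in this comparison. It was at 26.4 and 24.7 CPM with SRPIN340 and at 19.0 and 17.2 CPM in control, a log2 fold change of 0.50 (SE 0.09, adjusted p = 0.03544). That p is under 0.05 but the change is below the limit of a call, and 0.767% of tested genes were higher at an adjusted p under 0.05 with no limit on the fold. The adjusted p of IER3 was 0.000892 in DESeq2. In edgeR it was 0.03648 with RLE scaling, 0.03091 by library total only, 0.03301 with no filter and 0.02276 with a filter of 10 CPM. It was 0.0548 with the acidosis libraries left out of the fit and 0.1002 with the replicate number as a block. Whether it was under 0.05 thus depended on the fit. When any single control or SRPIN340 library was left out, the log2 fold change lay between 0.43 and 0.57.

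NR4A1 was at 7.70 and 6.11 CPM with SRPIN340 against 4.90 and 4.95 CPM in control (log2 fold change 0.49, SE 0.15, adjusted p = 0.1362). EGR1 was at 12.7 and 9.83 CPM against 9.19 and 9.27 CPM, and NR4A2 at 11.0 and 10.9 CPM against 9.69 and 8.50 CPM, and neither passed the test (adjusted p = 0.3061 and 0.4535). The SRPIN340 samples of EGR1 and NR4A1 differed from each other by more than their control samples did. EGR2, EGR3, NR4A3, IER2 and IER5 overlapped between the groups, with log2 fold changes of 0.05, 0.23, 0.13, 0.05 and -0.03. The 95% intervals bound a change of IER2 between -0.15 and 0.26 and of IER5 between -0.22 and 0.17, whereas those of EGR2 (-0.99 to 1.09) and EGR3 (-0.57 to 1.04) leave room for a change beyond the limit of a call.

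Acidosis was also set against SRPIN340. The same 8 members were called higher, where 14.9% of tested genes were, and EGR2 was again not called (log2 fold change 0.74, SE 0.43, adjusted p = 0.1572). The changes were 4.96 for NR4A1, 4.42 for EGR1, 4.35 for IER2, 3.70 for EGR3, 3.06 for NR4A3, 2.74 for IER3, 2.42 for NR4A2 and 1.66 for IER5, with SEs of 0.08 to 0.31. With TMM scaling every acidosis sample lay above every SRPIN340 sample in all 9 members, which held for 37.7% of tested genes. On library totals alone EGR2 overlapped, with 31.2 of 21788457 counts in SRPIN340 replicate 2 and 27.5 of 21370143 in acidosis replicate 1. The comparison shares its acidosis samples with the comparison against control, so it is not independent of it.

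The genes around the members in the pathway were read from lists written with earlier results of these data known. Of 43 other immediate-early genes, 40 were called higher in acidosis against control and 0 lower, with a median log2 fold change of 3.59. Among all tested genes 14.4% were called higher and 19.1% lower. The largest changes were in RHOB, a small GTPase, at 8.41 (SE 0.16, adjusted p = 8.101e-10), and in the matricellular proteins CCN1, at 7.67 (SE 0.08, adjusted p = 2.11e-11), and CCN2, at 7.39 (SE 0.13, adjusted p = 4.309e-10). The 3 that were not called were HBEGF (0.91, adjusted p = 0.0004936, below the limit on the fold), EREG (1.39, adjusted p = 0.1071) and DUSP2 (0.91, adjusted p = 0.2216). Counts of EREG and DUSP2 were low, at most 13.4 and 18.6 in a library. All 43 had a fold change above 0.

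The upstream factors changed by less. Of 15 upstream transcription factors and coactivators, 6 were called higher and 0 lower, beside 14.4% and 19.1% of all tested genes, with a median of 0.79. They were led by SRF, which binds the CArG box, at 2.01 (SE 0.11, adjusted p = 2.216e-07), then by CRTC2, a coactivator of CREB, at 1.70 (SE 0.13, adjusted p = 2.123e-06), and ATF1, which binds the CRE, at 1.61 (SE 0.10, adjusted p = 6.016e-07). Scaled by library total only, 3 of the 15 were called higher and 1 lower, and these 3 genes remained the ones called higher, at 1.43, 1.13 and 1.03. The 1 called lower was MRTFB, at -1.35, which was at -0.78 with TMM (adjusted p = 0.0004098, below the limit on the fold). With that scaling 815 of all 14863 tested genes were called higher and 5202 lower.

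Of 17 members of the RAS, RAF, MEK, ERK and p38 cascade, 3 were called higher and 0 lower, with a median of 0.24. Over all tested genes 14.4% were called higher and 19.1% lower. The 3 were the kinases BRAF at 1.60 (SE 0.14, adjusted p = 4.777e-06), MAPKAPK2 at 1.27 (SE 0.07, adjusted p = 3.347e-07) and ARAF at 1.18 (SE 0.10, adjusted p = 3.905e-06). The direction of this list depends on the scaling: by library total only its median was -0.34, with 1 called higher and 3 lower. Of all 14863 tested genes, 815 were then called higher and 5202 lower.

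Among partners of the members, the EGR corepressors NAB1 and NAB2 had log2 fold changes of 0.71 (adjusted p = 0.0002479) and 0.57 (adjusted p = 0.02906), and WT1, a zinc finger relative of the EGR proteins, -0.96 (adjusted p = 0.01438), none beyond the limit of a call. By library total only NAB2 was at -0.01 and WT1 at -1.53, which was then called lower. EGR4 did not pass the filter, with at most 11.4 counts in a library. Of the retinoid X receptors that pair with NR4A1 and NR4A2, RXRB was called higher at 1.63 (SE 0.15, adjusted p = 7.195e-06), while RXRA was at -0.40 (adjusted p = 0.00795) and RXRG at -1.25 (adjusted p = 0.1003). By library total only RXRA was at -0.97 and RXRG at -1.81, which was then called lower. Counts of RXRG were low, at most 27.7 in a library.

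All 5 partners and relatives of the IER genes were called higher, as were 14.4% of tested genes, with a median of 1.30. The largest were PPP2R2A and PPP2CA, subunits of protein phosphatase 2A, at 2.57 (SE 0.08, adjusted p = 1.195e-08) and 1.39 (SE 0.06, adjusted p = 9.972e-08). HSF1 was at 1.30, IER5L at 1.24 and IER3IP1 at 1.10. Only PPP2R2A was still called by library total only, at 1.99. With SRPIN340 none of these lists held a called gene, where 0.323% of tested genes were called. CCN1 (0.49, adjusted p = 0.008391) and RHOB (0.91, adjusted p = 0.01053) were the only listed immediate-early genes at an adjusted p under 0.05.

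**Figure D5:**
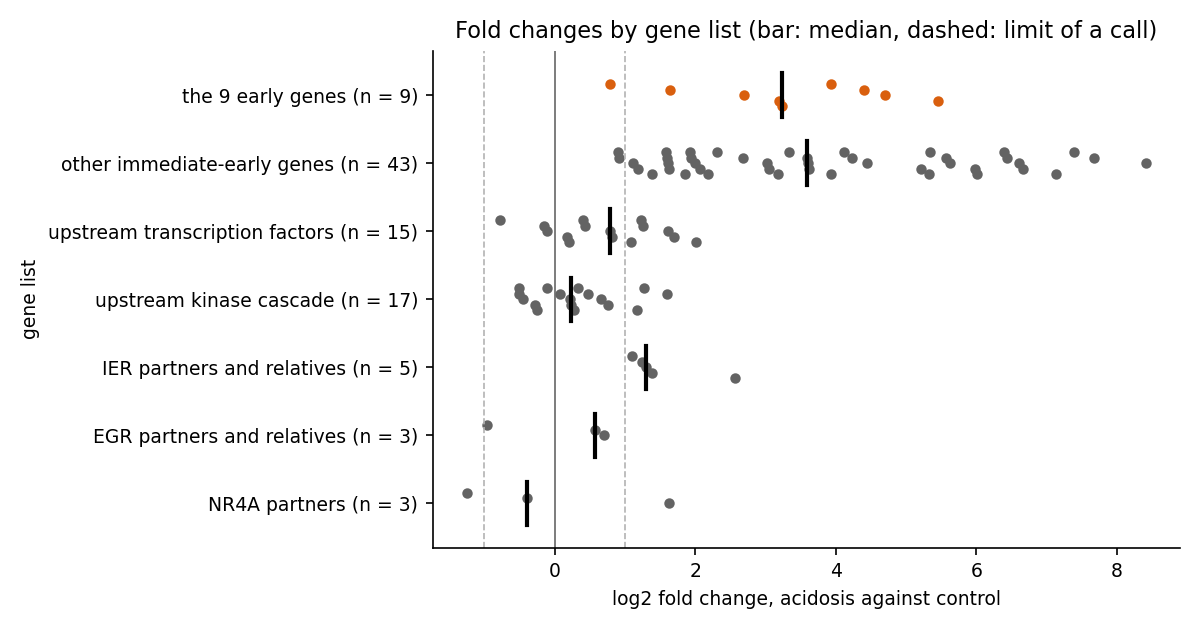
Log2 fold change in acidosis against control (x axis) of the tested genes in each list (y axis), with a bar at the median and dashed lines at the limit of a call. The medians are 3.23 for the 9 early genes and 3.59 for the 43 other immediate-early genes, and between -0.40 and 1.30 for the 5 lists of upstream factors and partners.

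The genes whose pattern over the 7 samples was most like that of each member were found among 13460 other genes whose mean reached 1 CPM, by the root mean square difference of log2 CPM centred on its mean. As the samples share libraries and fall into the same 3 groups, this is a description. NR4A1 was closest to JUN (0.096) and ATF3 (0.158), both subunits of AP-1 type factors, which were at 146 and 37.0 CPM in control and 5880 and 1820 CPM in acidosis. EGR1 was closest to GADD45A (0.092), a growth arrest gene, and to DHH (0.112), which had a mean of 0.071 CPM in control. The fitted log2 fold change of DHH was 5.46 and that of EGR1 4.70, so their likeness holds only for log2 CPM with its prior count of 1. IER2 was closest to SAT1 (0.091) and PTGS2 (0.102), the inducible cyclooxygenase, and IER3 to TMEM167B (0.105) and FOSL2 (0.109). EGR3 was closest to PMAIP1 (0.211) and HERPUD1 (0.212), NR4A2 to KRBA1 (0.086) and MEX3C (0.125), and NR4A3 to RAB39A (0.108) and ZBTB10 (0.131). EGR2 was closest to APOM (0.102) and FAM24B (0.104). The closest match of all was IER5 with ARF1 (0.016), a small GTPase of the Golgi, which rose from 402 CPM in control to 1239 CPM in acidosis, a log2 fold change of 1.62.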

How the data were processed

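Poly(A)-selected RNA of 7 HEK-293 samples was sequenced by the authors, who trimmed the reads (Trimmomatic 0.39 and Trim Galore 0.6.6), ran Salmon 1.5.1 on the Gencode transcripts of GRCh38.p13 and derived gene values through tximport, whose option is not given in the sources used here. The deposited table holds estimated counts for each gene, without normalization between samples. These were rounded, and edgeR 4.0.16 under R 4.3.3 (TMM, filterByExpr, quasi-likelihood) gave the tests, with all 7 samples in 1 fit and p adjusted over 14863 genes. The paper used DESeq2, here an alternative (1.42.0). SEs were taken from the test statistic, and log2 CPM for the likeness of patterns used a prior count of 1. Group labels and replicate numbers came from the sample titles. The methods describe biological repeats, each sequenced in replicates, whereas the deposited table holds 1 column per sample. How the replicates of a repeat were combined is not given in the sources used here. The p-values measure the spread between these samples only.

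The members and gene lists were chosen with earlier results of these data known. The genes named were the 9 members, the 3 called genes with the largest change in each list (2 or all in lists of 5 or fewer) and the 2 nearest patterns of each member. HBEGF, EREG, DUSP2 and MRTFB, and the listed genes at an adjusted p under 0.05 with SRPIN340, were named after their values were seen. Genes were matched to GENCODE 44 by Ensembl identifier (19977 of 19978), and promoters were taken from RefSeq (GRCh38.p14). Figures were drawn with matplotlib 3.10.9 in Python 3.11.15. Alternatives were DESeq2, RLE and total-count scaling, no filter, a filter of 10 CPM, the 2 compared groups alone, a replicate block, no fold limit and leaving out each replicate.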

Additional observations from a re-analysis of the deposited data

How the results depend on the processing

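In both comparisons of acidosis the same number of members, 8, was called under every alternative, with EGR2 not tested under the filter of 10 CPM. Total-count scaling gave the lowest changes against control, among them 0.21 for EGR2 (0.79 with TMM), 1.06 for IER5 and 4.87 for NR4A1, and 0.12 for EGR2 against SRPIN340 (0.74 with TMM). It changed the split of all genes called from 2145 higher and 2840 lower to 815 and 5202 against control, and from 2213 and 2935 to 775 and 5505 against SRPIN340. Of 336 alternative values for the members, 328 kept direction and call. With no fold limit IER3 passed the test in SRPIN340 against control (0.50), and the genes called numbered 9917 in acidosis against control, 342 in SRPIN340 against control and 10084 in acidosis against SRPIN340. Total-count scaling reversed IER5 with SRPIN340 to 0.011. Leaving out 1 library of SRPIN340 or control gave 11 to 29 genes called in place of 48. It gave log2 fold changes of -0.32 to 0.35 for EGR2 (-0.14 without control replicate 1 and -0.32 without SRPIN340 replicate 2), -0.17 to 0.55 for EGR3, -0.17 to 0.50 for NR4A3, -0.0063 to 0.11 for IER2 and -0.11 to 0.0451 for IER5. Without SRPIN340 replicate 1 EGR1 was at 0.09 and NR4A1 at 0.31, without SRPIN340 replicate 2 EGR1 was at 0.46, and without control replicate 2 NR4A2 was at 0.18. None of these passed the test. The cause was not tested. Deviations of same-numbered samples from their group means correlated at -0.17 to 0.09. In a group of 2 the deviations mirror each other, so this cannot show whether the repeat numbers mark shared batches. A replicate block gave 27 genes called with SRPIN340 in place of 48 and changed no call of a member. Depth limits EGR2 and EGR3 at pH 7.4, which had 17.2 to 31.2 counts per library.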
